A study of Mus musculus with 10 samples.

Results

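The Hox genes of the mouse were followed along the gut: every gene whose symbol is Hoxa, Hoxb, Hoxc or Hoxd with a number. There were 39 of them (11 in the HoxA cluster, 10 in HoxB, 9 in HoxC and 9 in HoxD) among 23079 genes measured. They were chosen by name and not by level. The study compared vertical sleeve gastrectomy (VSG), a weight-loss operation that removes most of the stomach, with a sham operation in male C57BL/6J mice. The mice were 17 weeks old, had no engineered allele named in the labels, had eaten high-fat food over 13 weeks and went without food the night before the operation. In VSG the lateral 80% of the stomach was cut away and about 20% was left as a tube, and sham mice had their abdomen opened and the stomach squeezed gently with a clamp. A liquid diet followed surgery, with a gradual return to high-fat food. There was 1 sham and 1 VSG library of total RNA for each of stomach, duodenum, jejunum, ileum and colon, 10 in all. The number of animals per library, any pooling and the time after surgery are not in the labels. The p-values below rest on the spread left after tissue and surgery terms. This spread mixes surgery effects that differ between tissues with variation between libraries, which may be technical.

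Hox genes encode transcription factors that bind DNA through a homeodomain, and their order within each cluster matches the order of the body regions in which they act. Genes of the same number in different clusters are paralogs, which arose by duplication of an ancestral cluster. In the gut they are known mainly from the embryonic mesoderm, where they help to set the borders between segments, and the genes with the highest numbers mark the hindgut in both endoderm and mesoderm. Here paralogs 1 to 3 are called anterior (8 genes), 4 to 8 central (15 genes) and 9 to 13 posterior (16 genes).

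The libraries held between 36073684 and 79313155 recovered reads on genes. The library labelled sham duodenum went against its label. Epcam, an epithelial adhesion gene, was at 0.504 RPKM there and at 69.2 to 1163 RPKM in the other 9 libraries. Snap25, a synaptic gene, was at 498 RPKM there and at 1.54 to 10.8 RPKM elsewhere. The summed level of 8 epithelial markers was 7.7 RPKM against 2846 to 6921 RPKM, and that of 10 markers of brain neurons and glia was 959 RPKM against 33.3 to 91.0 RPKM. Tissue contrasts were therefore fitted to the other 9 libraries, with the value for all 10 given beside the main counts. In those 9 the gastric gene Gkn1 was highest in stomach, Fabp6 in ileum and Car1 in colon. VSG duodenum held 6 markers of proximal small intestine at a sum of 17791 RPKM. It also held 8 stomach markers at 2052 RPKM, against 21.2 and 19.9 RPKM in sham and VSG jejunum. Its 6 exocrine pancreas markers summed to 2311 RPKM, and those of VSG stomach to 1426 RPKM. The 6 leukocyte markers summed to 2525 RPKM in VSG stomach and 218 RPKM in sham stomach. RPKM (reads divided by gene length and library depth) is a level per length, so it was also used to set genes side by side.

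The homeoboxes of the 3 paralog-13 genes present in colon are shown first, since these genes separate the colon from every other segment. All lie in exon 2 of 2 and are coding, in the GENCODE M21 annotation of GRCm38. Hoxb13 is at chr11:96196020-96196199 on the plus strand, Hoxa13 at chr6:52258928-52259107 on the minus strand and Hoxd13 at chr2:74669930-74670109 on the plus strand. Each run has 180 bases, and the capitals mark the 6 codons of the conserved recognition helix that were used to find the homeobox.
Hoxb13: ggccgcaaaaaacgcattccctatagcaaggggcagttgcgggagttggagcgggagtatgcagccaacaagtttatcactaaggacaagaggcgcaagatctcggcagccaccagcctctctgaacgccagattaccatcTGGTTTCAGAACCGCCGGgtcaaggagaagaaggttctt
Hoxa13: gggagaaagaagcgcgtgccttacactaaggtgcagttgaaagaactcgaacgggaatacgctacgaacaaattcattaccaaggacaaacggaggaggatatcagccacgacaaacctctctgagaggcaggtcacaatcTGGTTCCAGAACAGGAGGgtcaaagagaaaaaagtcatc
Hoxd13: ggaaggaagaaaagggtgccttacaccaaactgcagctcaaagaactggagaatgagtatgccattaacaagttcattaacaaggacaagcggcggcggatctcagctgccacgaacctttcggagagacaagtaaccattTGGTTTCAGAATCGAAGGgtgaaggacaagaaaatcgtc
Hoxb13 shared 124 of these bases (68.9%) with Hoxa13 and 121 (67.2%) with Hoxd13, and Hoxa13 and Hoxd13 shared 133 (73.9%). Over all 42 pairs of the same paralog number the median was 80.6%, with Hoxb13 and Hoxd13 at the lowest value of all. No stretch longer than 11 bases was the same in 2 of these 3 sequences, whereas Hoxb3 and Hoxd3 shared an unbroken run of 47 bases. How the authors assigned reads that match more than 1 gene is not given in the sources used here, so the split of reads between Hoxa3, Hoxb3 and Hoxd3 is uncertain.

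Fewest Hox genes were present in duodenum and jejunum and most in colon, and the colon alone held genes up to paralog number 13. At or above 1 RPKM there were 14 of 39 genes in sham stomach and 14 in VSG stomach, 8 in VSG duodenum, 7 in sham and 9 in VSG jejunum, 13 in each ileum library, 24 in sham colon and 26 in VSG colon. The highest paralog number reaching 1 RPKM in the HoxA cluster was 5 in every fitted stomach, duodenum, jejunum and ileum library and 13 in colon. In HoxB it was 7 in stomach, 5 in VSG duodenum, 6 in both jejunum libraries, 9 in ileum and 13 in colon. In HoxD no gene reached 1 RPKM in a fitted library above the colon, where number 13 did. HoxC behaved differently, with number 8 reached in stomach and ileum and no gene in colon. The count at this level depends on where it is set in jejunum, where 3 genes of the sham library reached 2 RPKM and 13 reached 0.5 RPKM, and where 4 reached 1 RPKM after scaling all libraries to 1 total.

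**Figure D1:**
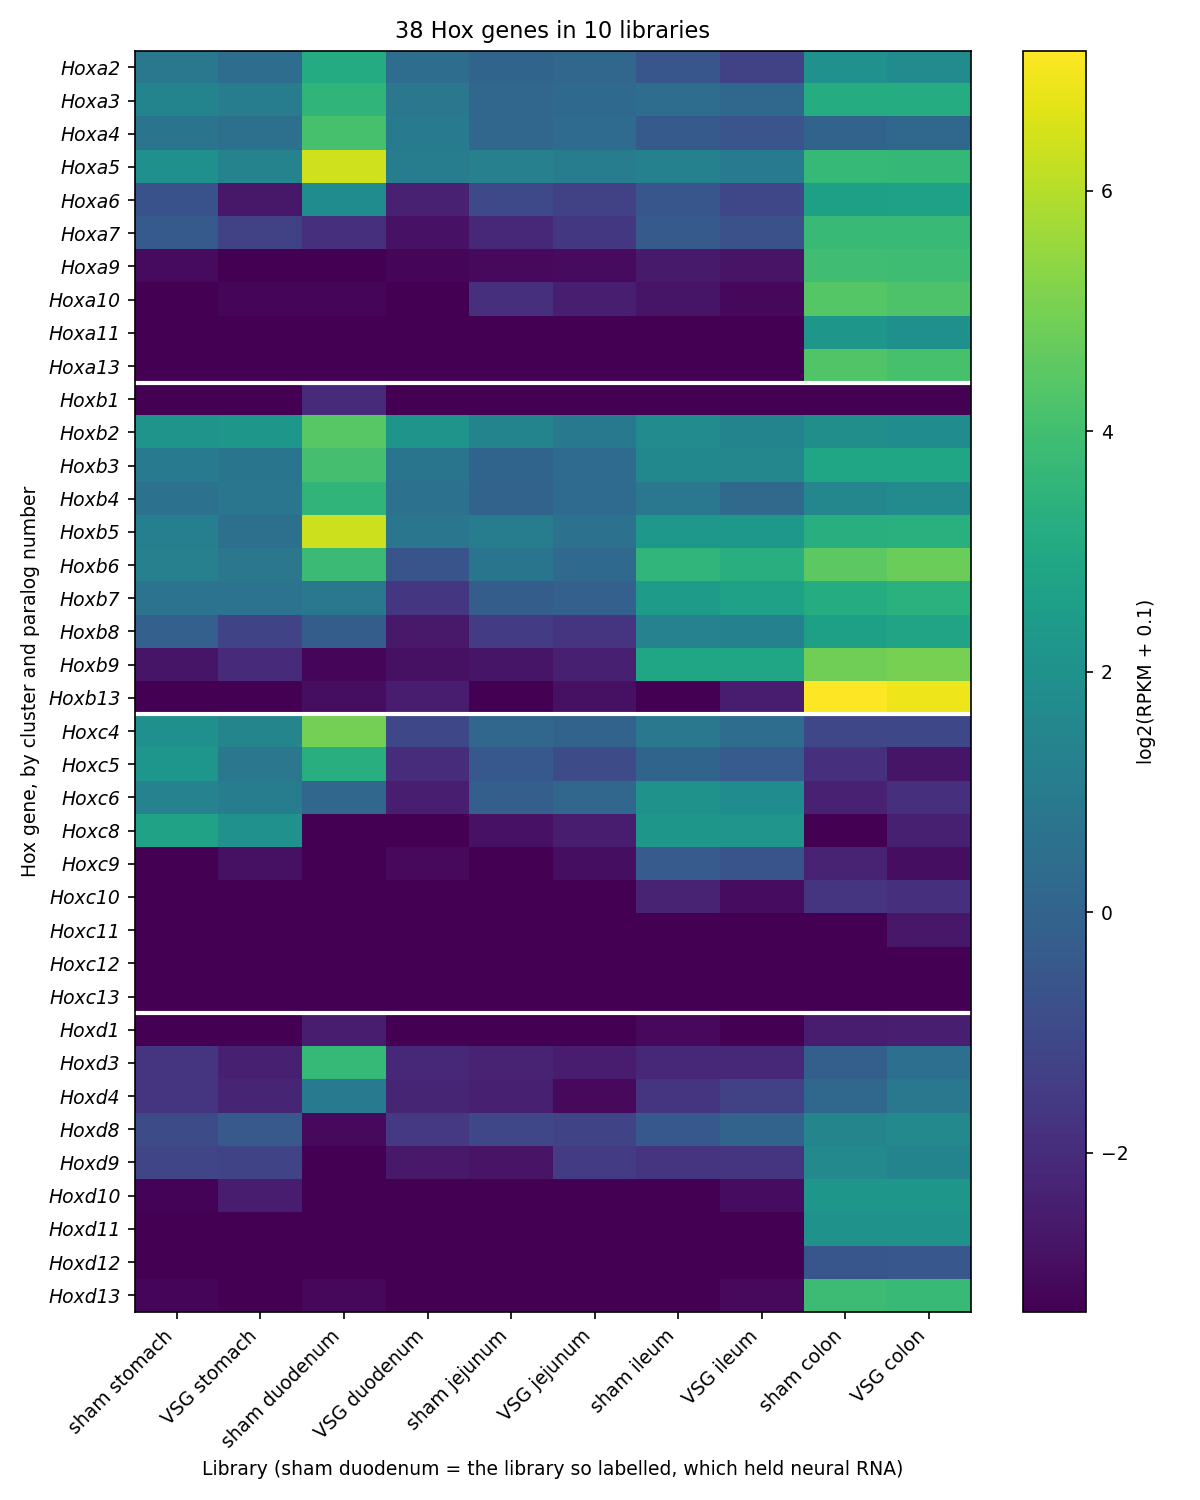
Colour gives log2(RPKM + 0.1) of 38 Hox genes (rows, by cluster and paralog number) in 10 libraries (columns). The lower rows of HoxA, HoxB and HoxD are bright in colon, with Hoxb9 also bright in ileum, the HoxC block is bright in stomach and ileum, and the library labelled sham duodenum is bright in the upper rows of each cluster.

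The summed level of the 16 posterior genes was 260 RPKM in sham colon and 231 RPKM in VSG colon. In ileum it was 8.51 and 8.19 RPKM, and in the 5 fitted libraries above the ileum it lay between 0.217 and 0.611 RPKM. Posterior genes made up 69.8% and 65.7% of all Hox RPKM in the sham and VSG colon, 14.3% and 15.3% in ileum and at most 3.05% in the fitted libraries above. The 15 central genes summed to 32.4 RPKM in sham and 21.7 RPKM in VSG stomach, 8.91 RPKM in VSG duodenum, 12.4 and 11.3 RPKM in jejunum, 42.7 and 38.5 RPKM in ileum and 88.1 and 96.3 RPKM in colon. They were lowest in duodenum and jejunum. The 8 anterior genes varied least, from 5.28 RPKM in VSG jejunum to 10.6 RPKM in sham stomach above the colon, and stood at 24.3 and 24.2 RPKM in the colon libraries.

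**Figure D2:**
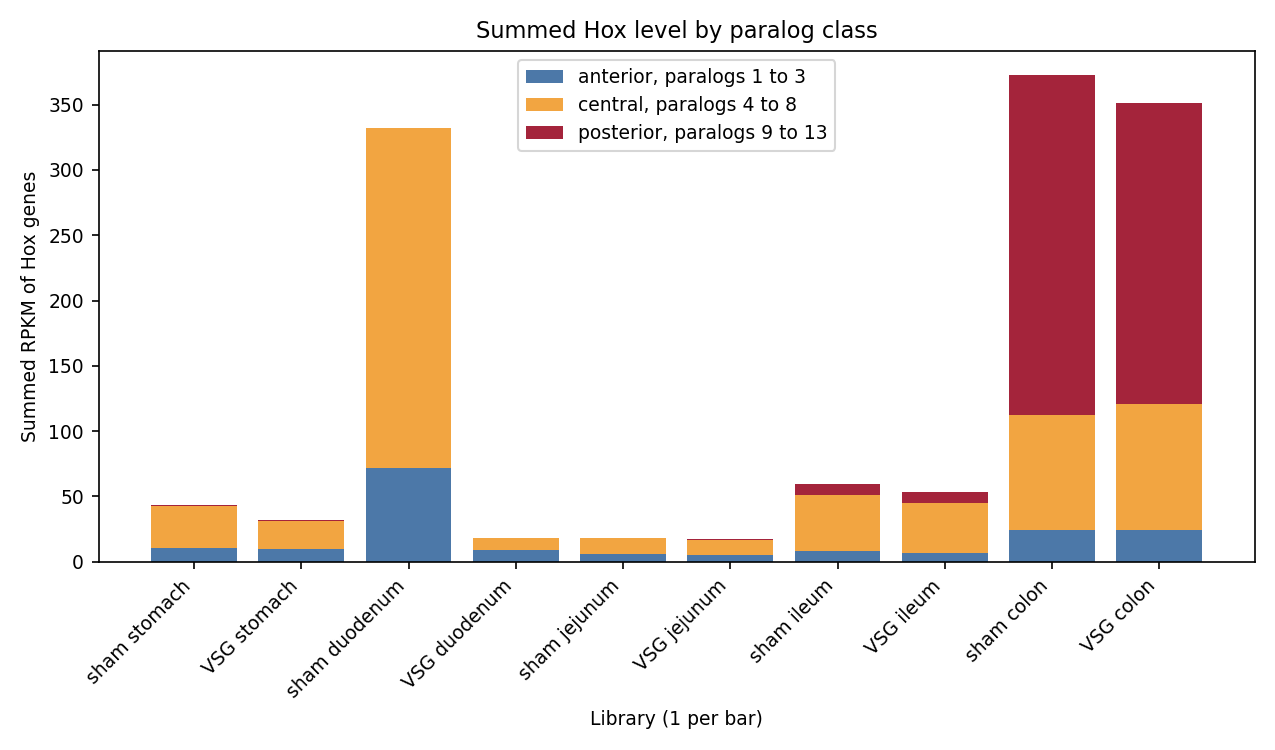
Bars give the summed RPKM of Hox genes in each of 10 libraries, stacked by paralog class (anterior 1 to 3, central 4 to 8, posterior 9 to 13). The posterior part is visible in ileum (8.51 and 8.19 RPKM) and makes up most of the bar in colon (260 and 231 RPKM), and the library labelled sham duodenum holds central and anterior genes only.

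Colon was set against the mean of the other 4 tissues with limma on log2(RPKM + 0.1), with surgery as an additive term, and a gene was called at a Benjamini-Hochberg adjusted p under 0.05 and at least 2-fold. Of 39 Hox genes 33 passed the filter (0.1 RPKM or more on average in the 9 libraries), and 9 of the 33 passed only through the colon libraries, so that they had to differ. Among the 24 that would have passed without colon, 16 were higher in colon, 4 were lower and 4 were not called. Over all 16796 genes tested 17.3% were called, 12.3% higher and 4.99% lower. The median log2 difference was 2.21 over these 24 Hox genes and 0.31 over all genes. With the library labelled sham duodenum added, 4 of the 24 were called, all higher (Hoxa7, Hoxb9, Hoxd8 and Hoxd9). The calls also rest on having both colon libraries: 10 of the 24 were called without sham colon and 7 without VSG colon, with Hoxa3, Hoxa5, Hoxa7, Hoxb6, Hoxb7 and Hoxb9 called in both fits. Smooth muscle markers moved with this contrast: 8 of 10 were higher in colon and none lower, with a summed level of 2495 and 2250 RPKM in colon, 428 to 1030 RPKM in the fitted small intestine libraries and 2410 and 1631 RPKM in stomach. Of 12 markers of enteric neurons and glia 9 were higher in colon, with a sum of 74.4 and 56.2 RPKM against 17.4 to 44.6 RPKM in the other fitted libraries. Their part in the Hox differences was not tested. In these bulk samples fewer cells of a type and less RNA per cell cannot be told apart.

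Hoxb13, a hindgut and prostate Hox gene, had the highest level of any Hox gene, with 143 RPKM in sham colon and 119 RPKM in VSG colon. It was listed at 0 in sham and VSG stomach, sham jejunum and sham ileum, and stood at 0.0776 RPKM in VSG duodenum, 0.0406 RPKM in VSG jejunum and 0.0781 RPKM in VSG ileum. The colon libraries lay far above all others, with 13941 reads against 12 reads in the other 7 fitted libraries. The pooled ratio was 5061, with an exact 95% interval from 2897 to 9798 that covers counting error only. Hoxb13 entered the fit only through the colon libraries, so its difference is given as a description, 10.01 on the log2(RPKM + 0.1) scale. Hoxb13 alone held 38.4% of the Hox RPKM in sham colon and 34.0% in VSG colon.

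Hoxa13, which is needed for the hindgut and the genital and urinary ducts, was at 19.7 RPKM in sham colon and 17.2 RPKM in VSG colon and listed at 0 in the other 8 libraries. Against a floor of 3 reads per library this is at least 381-fold higher in colon. Hoxd13, known for its role in limb digits and in the smooth muscle of the anal sphincter, was at 14.4 and 13.3 RPKM in sham and VSG colon and at most 0.0207 RPKM elsewhere. It had 2 reads in all of the other 7 fitted libraries together, for a pooled ratio of 3017 with an interval from 834 to 24938. Both genes, too, passed the filter only through colon, so no test is read from them.

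The remaining posterior genes of HoxA and HoxD showed the same split. Hoxa10, known for its role in the uterus and the lumbar spine, was at 21.2 and 18.5 RPKM in sham and VSG colon. It was at 0 to 0.167 RPKM in the other 7 fitted libraries. Hoxa9, a regulator of blood cell precursors, was at 15.3 and 14.7 RPKM in colon and at 0 to 0.0704 RPKM elsewhere. Their highest values outside the colon were in sham jejunum for Hoxa10 and in sham ileum for Hoxa9, both under 1 RPKM. Hoxa11, needed with its paralogs for kidney and forelimb, was at 4.63 and 3.77 RPKM in colon and listed at 0 elsewhere, at least 148-fold higher. Hoxd10 stood at 4.60 and 4.55 RPKM, Hoxd11 at 4.03 and 4.12 RPKM and Hoxd12 at 0.592 and 0.626 RPKM in sham and VSG colon. Hoxd11 and Hoxd12 had no read outside the colon, which makes them at least 259-fold and 24.1-fold higher there. Hoxd9 was less exclusive, at 2.93 and 2.53 RPKM in colon against 0.0475 to 0.358 RPKM in the other fitted libraries.

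**Figure D3:**
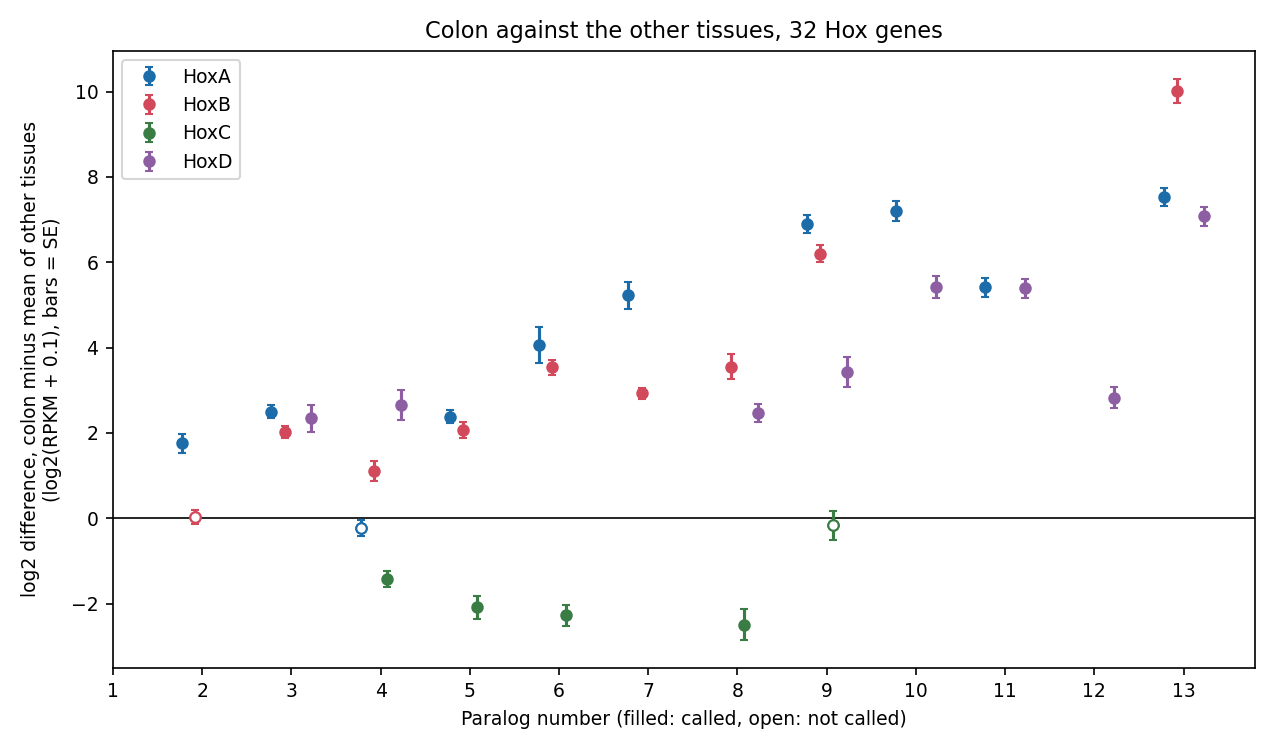
Points give the log2 difference of colon from the mean of the other tissues on the log2(RPKM + 0.1) scale, by paralog number and cluster, for 32 of the Hox genes tested, with bars for 1 SE. Hoxb13 is at 10.01, the HoxA, HoxB and HoxD genes from number 5 upward are all above 2, and the HoxC genes 4, 5, 6 and 8 lie below 0.

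Hoxb9, a posterior gene known from the rib cage, stepped up at the ileum and again at the colon. It was at 0.0511 RPKM in sham stomach, 0.137 RPKM in VSG stomach, 0.0397 RPKM in VSG duodenum, 0.0499 RPKM in sham jejunum and 0.0889 RPKM in VSG jejunum. It then stood at 7.38 RPKM in sham ileum, 7.22 RPKM in VSG ileum, 29.4 RPKM in sham colon and 31.8 RPKM in VSG colon. The groups did not overlap at either step. The difference was 5.46 (SE 0.25, limma adjusted p 0.00504) from jejunum to ileum and 2.05 (SE 0.25, adjusted p 0.00759) from ileum to colon. The first call was lost without any one of the 4 jejunum and ileum libraries, and the second without any one of the 4 ileum and colon libraries, with adjusted p from 0.0771 to 0.104.

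The central HoxB genes formed a graded series. Hoxb6, which takes part in patterning of the thoracic vertebrae, was at 2.26 and 1.70 RPKM in sham and VSG stomach, 0.565 RPKM in VSG duodenum, 1.58 and 1.09 RPKM in jejunum, 11.9 and 9.80 RPKM in ileum and 23.1 and 27.6 RPKM in colon. Hoxb7 was at 1.49 and 1.52 RPKM in stomach, 0.214 RPKM in VSG duodenum, 0.747 and 0.818 RPKM in jejunum, 5.42 and 6.35 RPKM in ileum and 8.83 and 10.2 RPKM in colon. Hoxb8, whose loss in mice alters grooming, was at 0.840 and 0.347 RPKM in stomach, 0.0626 RPKM in VSG duodenum, 0.263 and 0.211 RPKM in jejunum, 2.40 and 2.36 RPKM in ileum and 6.14 and 6.78 RPKM in colon. All 3 were lowest in VSG duodenum and highest in colon, without overlap between jejunum, ileum and colon. From jejunum to ileum they rose by 2.95 (SE 0.22), 2.76 (SE 0.16) and 2.88 (SE 0.35) on the log2(RPKM + 0.1) scale, with limma adjusted p of 0.0152, 0.00848 and 0.0345, and these calls too needed all 4 jejunum and ileum libraries. Hoxb5, which acts in the enteric nervous system and lung, was nearly level from stomach to jejunum (1.38 to 2.18 RPKM) and stood at 4.77 and 4.68 RPKM in ileum and 9.45 and 10.1 RPKM in colon.

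Most of the HoxA genes had their main step at the colon. Hoxa5, a gene of lung, stomach and gut mesenchyme, was at 3.79 and 2.50 RPKM in sham and VSG stomach, 2.03 RPKM in VSG duodenum, 2.27 and 2.09 RPKM in jejunum and 2.32 and 1.91 RPKM in ileum, then at 13.1 and 12.5 RPKM in colon. Hoxa7 was at 0.0418 to 0.681 RPKM in the 7 fitted libraries above the colon and at 13.3 and 13.2 RPKM in it. Hoxa6 was at 0.0618 to 0.601 RPKM and then at 6.10 and 6.27 RPKM. Hoxa3, needed for the thymus and parathyroid, was at 1.01 to 2.52 RPKM and then at 8.90 and 8.79 RPKM, and Hoxa2, a gene of the second pharyngeal arch, at 0.305 to 1.74 RPKM and then at 3.87 and 3.26 RPKM. None of the 11 HoxA genes was called between ileum and jejunum, where 2.04% of all genes were called. With so few genes this does not show that no step was there. Hoxa9, Hoxa10, Hoxa11 and Hoxa13 passed the filter only through colon and could hardly be called. Hoxa7 was at 0.133 and 0.229 RPKM in sham and VSG jejunum and at 0.681 and 0.505 RPKM in ileum. Hoxa2 and Hoxa4 were lower in ileum than in jejunum, without overlap. Of the 7 HoxA genes that pass the filter without colon, 5 were called higher in colon than in ileum, where 10.3% of all genes were higher. Hoxa4 (0.571 to 1.85 RPKM over the 9 libraries) and Hoxb2 (1.78 to 4.59 RPKM) were not called in colon, with differences of -0.24 (SE 0.19, limma adjusted p 0.356) and 0.03 (SE 0.17, adjusted p 0.894). Hoxb3 stood at 7.00 and 7.23 RPKM and Hoxb4 at 2.82 and 3.24 RPKM in colon, against at most 2.84 and 1.74 RPKM in the other fitted libraries. In HoxD, Hoxd8 was at 2.65 and 2.93 RPKM, Hoxd4 at 1.05 and 1.72 RPKM and Hoxd3 at 0.803 and 1.30 RPKM in colon, against at most 0.903, 0.311 and 0.194 RPKM elsewhere.

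**Figure D4:**
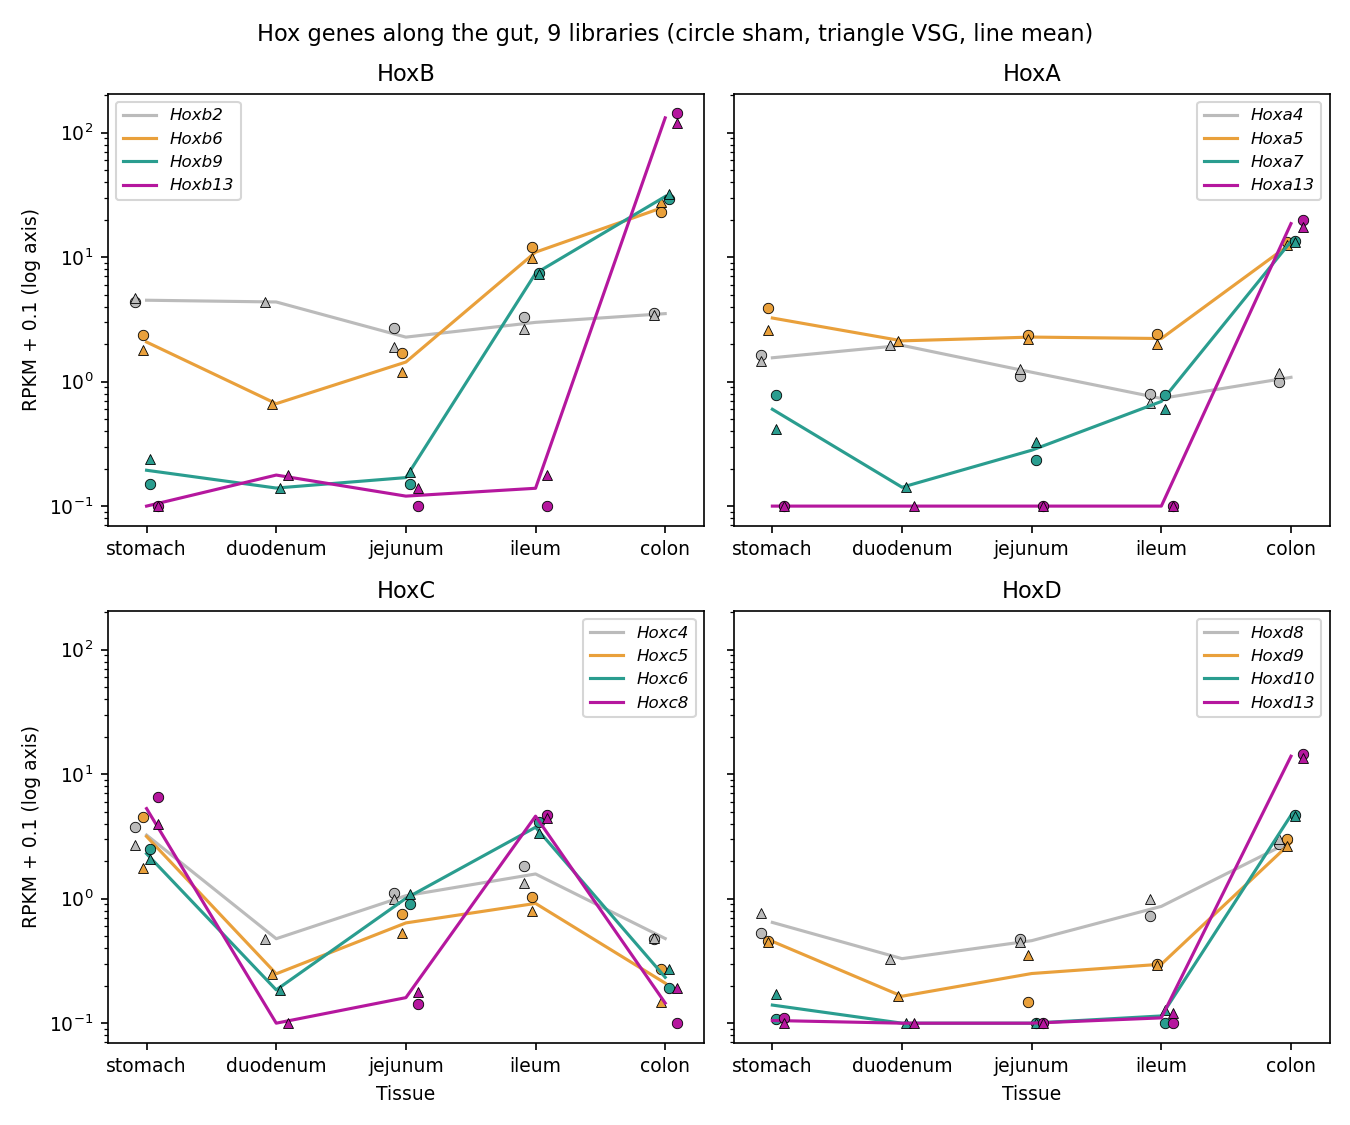
RPKM + 0.1 on a log axis is shown for 4 genes of each cluster in 9 libraries, with circles for sham, triangles for VSG and lines through the tissue means (1 library in duodenum). Hoxb9 steps up at the ileum, Hoxa7 and Hoxa13 at the colon, and the 4 HoxC genes peak in stomach and ileum.

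HoxC ran against the other clusters. Hoxc8, which takes part in patterning of the thoracic skeleton and spinal motor neurons, was at 6.51 and 3.89 RPKM in sham and VSG stomach, at 0 in VSG duodenum, at 0.0421 and 0.0787 RPKM in sham and VSG jejunum, at 4.62 and 4.38 RPKM in ileum and at 0 and 0.0902 RPKM in colon. Stomach and ileum thus stood apart from duodenum, jejunum and colon without overlap. Hoxc6 was at 2.40 and 1.99 RPKM in stomach, 0.0850 RPKM in VSG duodenum, 0.812 and 1.00 RPKM in jejunum, 4.01 and 3.29 RPKM in ileum and 0.0933 and 0.174 RPKM in colon. Hoxc4 was at 3.69 and 2.59 RPKM in stomach, 0.377 RPKM in VSG duodenum, 1.01 and 0.903 RPKM in jejunum, 1.73 and 1.23 RPKM in ileum and 0.372 and 0.385 RPKM in colon. Hoxc5 was highest in sham stomach at 4.44 RPKM, against 1.68 RPKM in VSG stomach, and stood at 0.171 and 0.0489 RPKM in colon. For Hoxc4, Hoxc5 and Hoxc6 the colon libraries lay below every stomach, jejunum and ileum library. They overlapped with VSG duodenum for Hoxc4 and Hoxc5 and lay just above it for Hoxc6.

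These 4 genes were the only Hox genes called lower in colon than in the mean of the other tissues, by 2.49 (SE 0.36) for Hoxc8, 2.28 (SE 0.24) for Hoxc6, 2.09 (SE 0.26) for Hoxc5 and 1.43 (SE 0.19) for Hoxc4, with limma adjusted p from 0.00363 to 0.00825. These calls need both colon libraries: none of the 4 was called lower without sham colon and 1 without VSG colon. Between neighbours, all 4 and Hoxc9 were lower in colon than in ileum, with Hoxc8 lower by 5.06 (SE 0.44, adjusted p 0.00327) on the log2 scale. In the contrast of stomach with the mean of the other tissues 5 of the 24 Hox genes that pass without colon were called, 4 higher and 1 lower, where 23.9% of all genes were called, 12.8% higher and 11.1% lower. The 4 that were higher were again Hoxc4, Hoxc5, Hoxc6 and Hoxc8, with differences of 2.00 (SE 0.19), 2.69 (SE 0.26), 1.86 (SE 0.24) and 4.03 (SE 0.36) and adjusted p from 0.00119 to 0.00369. The lower one was Hoxb9, whose mean over the other tissues holds the colon. Of the 24, 2 were called with all 10 libraries, 9 without sham stomach and 11 without the VSG duodenum library. Smooth muscle and fibroblast markers were also higher in stomach, 4 of 10 and 6 of 10, and none was lower; their part was not tested.

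Hoxb8 and Hoxc8 show how far 2 paralogs differed along the gut. Their homeoboxes are printed for that comparison, with the recognition helix in capitals as above. Both are coding and in exon 2 of 2 on the plus strand, Hoxb8 at chr11:96284174-96284353 and Hoxc8 at chr15:102992571-102992750 of GRCm38.
Hoxb8: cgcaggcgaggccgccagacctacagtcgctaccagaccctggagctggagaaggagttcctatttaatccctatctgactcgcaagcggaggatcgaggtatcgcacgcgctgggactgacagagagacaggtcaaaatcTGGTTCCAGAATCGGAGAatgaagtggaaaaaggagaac
Hoxc8: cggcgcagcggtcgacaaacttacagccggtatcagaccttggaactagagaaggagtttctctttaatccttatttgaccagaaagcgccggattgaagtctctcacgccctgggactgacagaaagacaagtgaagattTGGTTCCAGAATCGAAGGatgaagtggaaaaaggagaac
They shared 144 of 180 bases (80.0%), with a longest common run of 21 bases. In colon Hoxb8 stood at 6.14 and 6.78 RPKM and Hoxc8 at 0 and 0.0902 RPKM, whereas in stomach Hoxb8 stood at 0.840 and 0.347 RPKM and Hoxc8 at 6.51 and 3.89 RPKM. In ileum both were present.

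From stomach to duodenum 8 of the 24 Hox genes that pass the filter without colon were called, all lower. They were Hoxa7, Hoxb6, Hoxb7, Hoxb8, Hoxc4, Hoxc5, Hoxc6 and Hoxc8. Over all genes 20.9% were called and 9.09% were lower. Hoxc6 differed by -3.66 (SE 0.37, limma adjusted p 0.00343), and Hoxc8 was listed at 0 in VSG duodenum. In the same contrast 5 of 10 smooth muscle and 4 of 10 fibroblast markers were lower and none was higher, with medians of -0.92 and -2.46, and their part in the Hox differences was not tested. This step and the next rest on the VSG duodenum library alone for the duodenum, which is assumed to vary like the other groups, and 5 genes were called without sham ileum or without VSG ileum. From duodenum to jejunum limma called no Hox gene, with 7 at an unadjusted p under 0.05, where 0.208% of all genes were called. One Hox gene was called there without sham stomach and 2 without VSG stomach. From jejunum to ileum 8 of the 24 genes were called, all higher, where 2.04% of all genes were called and 1.3% were higher. They were Hoxb3, Hoxb6, Hoxb7, Hoxb8, Hoxb9, Hoxc6, Hoxc8 and Hoxc9. None of these 8 was called without sham jejunum, VSG jejunum, sham ileum or VSG ileum, and 1 was called without either colon library. Of 10 smooth muscle markers 3 were higher in ileum than in jejunum, and their part was not tested. From ileum to colon 19 of the 24 genes that pass the filter without colon were called, 14 higher and 5 lower, where 14.1% of all genes were called, 10.3% higher and 3.79% lower. Only 4 were called without any one of the 4 ileum and colon libraries. Of 10 smooth muscle markers 6 were higher in colon than in ileum, and their part was not tested. In the F test for any difference between tissues 23 of the 24 passed, where 48.7% of all genes passed, with 15 without sham colon and 14 without VSG colon. With the library labelled sham duodenum added, the counts were 1, 1 and 2 for duodenum against stomach, ileum against jejunum and colon against ileum, and 4 in the F test. Scaling all libraries to 1 total moved the median over all genes by more than 0.1 only in contrasts with the duodenum, from 0.13 to -0.09 in duodenum against stomach and from -0.33 to -0.12 in jejunum against duodenum.

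Duodenum, jejunum and ileum were also each set against the mean of the other tissues, again over the 24 genes that pass the filter without colon. This mean holds the colon, so a gene that is high in colon tends to come out low in the others. In duodenum 7 were called, all lower, where 3.52% of all genes were called and 0.851% were lower. In jejunum 9 were called, all lower, where 15.7% of all genes were called and 12.0% were lower. In jejunum 9 of 10 smooth muscle markers were lower too, with a median of -1.41, as were 3 of 12 markers of enteric neurons and glia, and their part was not tested. In ileum 9 were called, where 6.29% of all genes were called, 2.9% higher and 3.39% lower: 7 were higher (Hoxb6, Hoxb7, Hoxb8, Hoxb9, Hoxc6, Hoxc8 and Hoxc9) and 2 lower (Hoxa2 and Hoxa3). These counts rest on single libraries. The duodenum count was 0 without VSG jejunum, sham ileum or VSG ileum, 2 without sham jejunum or sham colon, 1 without VSG colon and 12 without either stomach library. The jejunum count was 0 without sham jejunum, 1 without VSG jejunum and 6 without sham ileum. The ileum count was 0 without sham ileum or VSG ileum, and 6 without sham jejunum, VSG jejunum, sham colon or VSG colon. With all 10 libraries each count was 1.

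In HoxA, HoxB and HoxD the order of the genes in a cluster went along with their order along the gut. Each gene was given a position, the mean of tissue ranks from 1 (stomach) to 5 (colon) weighted by its RPKM. Over the 30 genes that reached 1 RPKM in at least 1 of the 9 libraries, Spearman's rho between paralog number and position was 0.793. It was 0.948 over 10 HoxA genes, 0.967 over 9 HoxB genes, 0.600 over 4 HoxC genes and 0.857 over 7 HoxD genes. In HoxB the position moved from 2.80 for Hoxb2 through 4.42 for Hoxb6 and 4.79 for Hoxb9 to 5.00 for Hoxb13. In HoxA, Hoxa4 at 2.64 lay nearer the stomach than Hoxa2 at 3.43 and Hoxa3 at 3.84. The HoxC genes lay between 1.88 (Hoxc5) and 2.92 (Hoxc6). These values describe genes that share the same libraries and are no test. Hoxa9, Hoxa10, Hoxa11, Hoxa13, Hoxb13, Hoxd10, Hoxd11 and Hoxd13 passed the filter only through the colon libraries. Their positions near 5 were thus fixed in advance, and rho rests in part on them. In sham libraries alone, with duodenum left out, rho was 0.801 overall and 0.000 in HoxC, and in VSG libraries alone 0.764 and 0.600.

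Members at low levels complete the account. Genes under 1 RPKM in all 10 libraries included Hoxb1, Hoxc9, Hoxc10, Hoxc11, Hoxc12, Hoxc13, Hoxd1 and Hoxd12, with Hoxc9 in sham ileum the highest at 0.698 RPKM. Hoxc12 and Hoxc13 were listed at 0 throughout. Hoxc10 was at 0.195 and 0.168 RPKM in sham and VSG colon and 0.105 and 0.0268 RPKM in ileum, and listed at 0 above. Hoxc11 had 4 reads, all in VSG colon. Hoxb1, a gene of the hindbrain, was listed at 0 in all 9 fitted libraries, and Hoxd1 did not exceed 0.0860 RPKM in them. Across the 39 genes both colon libraries lay above the other 7 fitted libraries in 27, 12 of them posterior. These 27 include the 9 genes that passed the filter only through colon and so had to differ. They also include Hoxc10 and Hoxd1, which failed the filter. The same held for 28.2% of the 16796 genes tested, all of which passed the filter, so the Hox count cannot be set against that share.

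RNAs and genes of the cluster neighbourhood were read beside the Hox genes. Of 18 non-coding RNAs listed for the clusters, 10 were in the table, 5 were tested and 4 were higher in colon, where 12.3% of all genes were higher. Hoxa11os and Mir196b passed the filter only through colon and had to differ. Hoxa11os, an antisense RNA that overlaps Hoxa11, was at 48.2 and 47.9 RPKM in sham and VSG colon and at most 0.0334 RPKM elsewhere. The strand of the reads is not given, so reads of Hoxa11 and Hoxa11os in their overlap cannot be told apart. The annotated span of Hoxaas3 overlaps Hoxa3 and covers Hoxa5 and Hoxa6. Hoxaas3 was at 8.69 and 7.22 RPKM in colon and at most 0.196 RPKM in the other fitted libraries. The limit of the unknown strand holds for reads in these overlaps too. Hotair, from the HoxC cluster, reached 0.0464 RPKM at most.

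The miR-196 genes lie within the clusters next to a Hox9 or Hox10 gene, Mir196a-1 6.07 kb from Hoxb9 and Mir196b 1.03 kb from Hoxa10. The mature miRNAs are shown because reads over these loci followed their Hox neighbours, with the seed (bases 2 to 8) in capitals, from RefSeq on GRCm38.p6. The first is at chr11:96265187-96265208 on the plus strand and the second at chr6:52230129-52230150 on the minus strand.
mmu-miR-196a-5p: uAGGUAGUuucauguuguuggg
mmu-miR-196b-5p: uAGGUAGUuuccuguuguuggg
Both have the same seed. Reads over the Mir196a-1 locus gave 9.02 and 7.79 RPKM in sham and VSG ileum and 56.6 and 65.4 RPKM in colon, at most 0.261 RPKM in the other libraries, and were called higher in colon by 7.48 (SE 0.44, limma adjusted p 0.000847). Hoxb9 showed the same 2 steps. Reads over Mir196b gave 15.9 and 14.1 RPKM in colon and at most 0.587 RPKM elsewhere, like Hoxa9 and Hoxa10. TruSeq libraries of this kind do not keep RNA as short as a mature miRNA, so these levels are of longer RNA over the locus. Hoxb8 holds the textbook target of miR-196, and among the transcripts of all 39 Hox genes it had the closest ungapped match. That site, in an untranslated part of exon 2 at chr11:96284888-96284909 on the plus strand of GRCm38, forms 21 Watson-Crick pairs and 1 wobble pair with miR-196a over 22 bases, with the bases facing the seed in capitals.
Hoxb8 site: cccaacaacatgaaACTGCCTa
The next closest members, Hoxa4 and Hoxd8, had 15 Watson-Crick pairs. In colon, where reads over Mir196a-1 were highest, Hoxb8 was also at its highest. Mature miR-196a was not measured, and Mir196a-2 on chr15 has the same mature sequence. The part of miR-196 in the level of Hoxb8 was not tested.

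Among the neighbours outside the clusters, 4 of 11 tested were higher in colon, where 12.3% of all genes were higher, but Evx1, Evx2 and Ttll6 passed the filter only through colon and had to differ. Ttll6, a tubulin-modifying enzyme gene 28.1 kb from Hoxb13, was at 11.8 and 11.4 RPKM in sham and VSG colon and at most 0.199 RPKM in the other fitted libraries. Evx1, 52.6 kb from Hoxa13, was at 0.729 and 0.455 RPKM in colon and Evx2, 6.71 kb from Hoxd13, at 0.489 and 0.841 RPKM, both listed at 0 in the other 7 fitted libraries. Calcoco1, beyond the HoxC cluster, was at 13.8 and 14.5 RPKM in colon and at 4.31 to 13.2 RPKM elsewhere.

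The ParaHox genes, a sister family that acts in gut endoderm, were measured with them. Cdx1, which helps to specify intestinal epithelium, was at 0.0729 and 0.0494 RPKM in sham and VSG stomach, 71.0 RPKM in VSG duodenum, 69.7 and 55.0 RPKM in jejunum, 104 and 102 RPKM in ileum and 244 and 246 RPKM in colon. Cdx2, the main intestinal member, was at 0.107 and 0.0806 RPKM in stomach and at 78.8 to 132 RPKM in all fitted intestinal libraries. Pdx1, a gene of duodenum and pancreas, was at 67.5 RPKM in VSG duodenum, 4.07 and 7.64 RPKM in stomach and 0.308 and 0.560 RPKM in colon. Exocrine pancreas markers summed to 2311 RPKM in VSG duodenum and 1426 RPKM in VSG stomach, and their part in the level of Pdx1 was not tested. Cdx proteins are known regulators of Hox genes, so the 250 bases before 2 annotated Hox starts are shown. These are the starts of Hoxa7 and Hoxb8, which held the most matches to the letters marked below. They are from RefSeq on GRCm38.p6, at chr6:52218574-52218823 on the minus strand and chr11:96281655-96281904 on the plus strand, with each TTTATG and its reverse complement CATAAA in capitals, letters found in many Cdx binding sites.
Hoxa7 upstream: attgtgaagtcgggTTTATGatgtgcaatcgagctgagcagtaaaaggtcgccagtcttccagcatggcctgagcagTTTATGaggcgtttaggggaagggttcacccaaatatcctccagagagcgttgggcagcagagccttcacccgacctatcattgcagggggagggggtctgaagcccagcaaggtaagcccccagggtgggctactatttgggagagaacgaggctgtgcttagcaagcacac
Hoxb8 upstream: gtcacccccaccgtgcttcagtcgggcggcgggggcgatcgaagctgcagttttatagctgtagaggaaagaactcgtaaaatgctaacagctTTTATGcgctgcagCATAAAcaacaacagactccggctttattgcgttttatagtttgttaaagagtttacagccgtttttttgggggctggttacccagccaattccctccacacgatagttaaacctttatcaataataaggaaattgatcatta
Both hold 2 matches. A promoter entry existed for 22 of 39 Hox genes (24 starts), and 5 of the 24 (20.8%) held the letters on either strand, against 3536 of 32851 promoters (10.8%) in the whole table. The other 3 were Hoxd3, Hoxd4 and Hoxd11. All 5 genes with a match were higher in colon. Among those whose starts held no match, Hoxa5, Hoxa6, Hoxa9, Hoxa10, Hoxa13 and Hoxd13 were higher too. Of the genes named, Hoxa9, Hoxa10, Hoxa13, Hoxd11 and Hoxd13 passed the filter only through colon and had to differ. The part of Cdx genes in these levels was not tested. A match is a description of the letters only.

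TALE proteins are homeodomain cofactors that bind DNA together with Hox proteins. Of 10 such genes 2 were higher in colon (Meis3 and Tgif1), 1 was lower (Pbx4) and 7 were not called, where 12.3% of all genes were higher and 4.99% lower, with a median of 0.56 beside 0.31 over all genes. In stomach only Meis1 was called of the 10, higher by 1.83 (SE 0.16, limma adjusted p 0.00114), with 5.68 and 4.07 RPKM in sham and VSG stomach, 0.706 to 1.33 RPKM in the fitted small intestine and 2.41 and 2.09 RPKM in colon. Retinoic acid is a known inducer of Hox genes, and of 15 tested genes of its signalling 4 were higher in stomach, none lower, where 12.8% of all genes were higher and 11.1% lower. In colon 1 was higher, the receptor gene Rarg, and 3 were lower (Aldh1a1, Aldh1a3 and Crabp2), where 12.3% of all genes were higher and 4.99% lower. Rarg was at 14.0 and 14.9 RPKM in stomach, 1.52 to 2.67 RPKM in the small intestine and 8.67 and 8.88 RPKM in colon. The binding protein gene Crabp2 was at 21.9 and 35.0 RPKM in stomach and no higher than 0.0855 RPKM in any other fitted library. Of 20 Polycomb and Trithorax genes and their partners, which keep Hox clusters silent or active, none was called in colon and 3 were lower in stomach (Dot1l, Ezh2 and Kdm6b), near the 11.1% of all genes that were lower there.

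No Hox gene passed the test for a difference between VSG and sham across tissues. In limma on the 8 libraries of stomach, jejunum, ileum and colon, with tissue as a block, none of 33 Hox genes and none of 16818 genes in all (0%) was called, and 1 Hox gene and 537 genes had an unadjusted p under 0.05. That gene was Hoxc5, with a difference of -0.77 (SE 0.22, unadjusted p 0.0178, limma adjusted p 0.822) on the log2(RPKM + 0.1) scale and a level lower in VSG than sham in 4 of 4 tissues. The median over the 33 genes was -0.02. A p that misses the threshold does not show that levels were the same.

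Within a tissue each surgery has 1 library, so there is no test, and the intervals below cover counting error only. In stomach 4 of 22 Hox genes, those averaging 0.1 RPKM or more in the pair, differed at least 2-fold on the RPKM + 0.1 scale, 3 lower (Hoxa6, Hoxb8 and Hoxc5) and 1 higher, where 23.5% of all genes did (15.9% higher and 7.68% lower). In plain RPKM 5 were at least 2-fold lower, with Hoxa7 and Hoxd3 added, and 1 higher. The share over all genes was not computed in plain RPKM, so this count has no background. Of the 22, 17 were lower in VSG, with a median log2 difference of -0.42 beside -0.0016 over all genes. Hoxc5 went from 4.44 to 1.68 RPKM, a ratio of 0.378 (exact interval 0.324 to 0.439), Hoxc8 from 6.51 to 3.89 RPKM, a ratio of 0.597 (0.534 to 0.668), and Hoxa5 from 3.79 to 2.50 RPKM, a ratio of 0.660 (0.561 to 0.773). The summed smooth muscle markers went from 2410 to 1631 RPKM, a ratio of 0.677, and the 10 fibroblast markers from 372 to 1523 RPKM. The ratio of VSG to sham was 0.607 for enteric neuron and glia markers, 0.198 for stomach markers and 11.6 for leukocyte markers. The part of all these markers in the Hox differences was not tested. VSG stomach is what remains after resection, so surgery and the part of stomach sampled cannot be told apart. Only Hoxc5 was past 2-fold with a pseudocount of 0.5 or 1.

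In colon none of 32 Hox genes differed 2-fold on the RPKM + 0.1 scale, where 2.47% of all genes did, and 16 were above and 16 below 0. In plain RPKM, for which the share over all genes was not computed, 1 did. This was Hoxc5, from 0.171 to 0.0489 RPKM on 20 and 5 reads, a ratio of 0.287 (0.0841 to 0.787). Hoxb13 went from 143 to 119 RPKM, a ratio of 0.832 (0.805 to 0.861), and Hoxa13 from 19.7 to 17.2 RPKM, a ratio of 0.874 (0.798 to 0.957). Hoxb6 went the other way, from 23.1 to 27.6 RPKM, a ratio of 1.19 (1.10 to 1.29), as did Hoxd4, from 1.05 to 1.72 RPKM, a ratio of 1.65 (1.29 to 2.11). In ileum none of 23 genes differed 2-fold on either scale, where 2.24% of all genes did on the RPKM + 0.1 scale. Of these 23, 20 were lower in VSG, with a median of -0.24 beside -0.0025 over all genes. The summed smooth muscle markers went from 1030 to 790 RPKM in ileum, a ratio of 0.767, and their part was not tested. In jejunum 1 of 20 Hox genes differed 2-fold, where 3.84% of all genes did: Hoxd9 went from 0.0475 to 0.254 RPKM, on 4 and 20 reads.

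**Figure D5:**
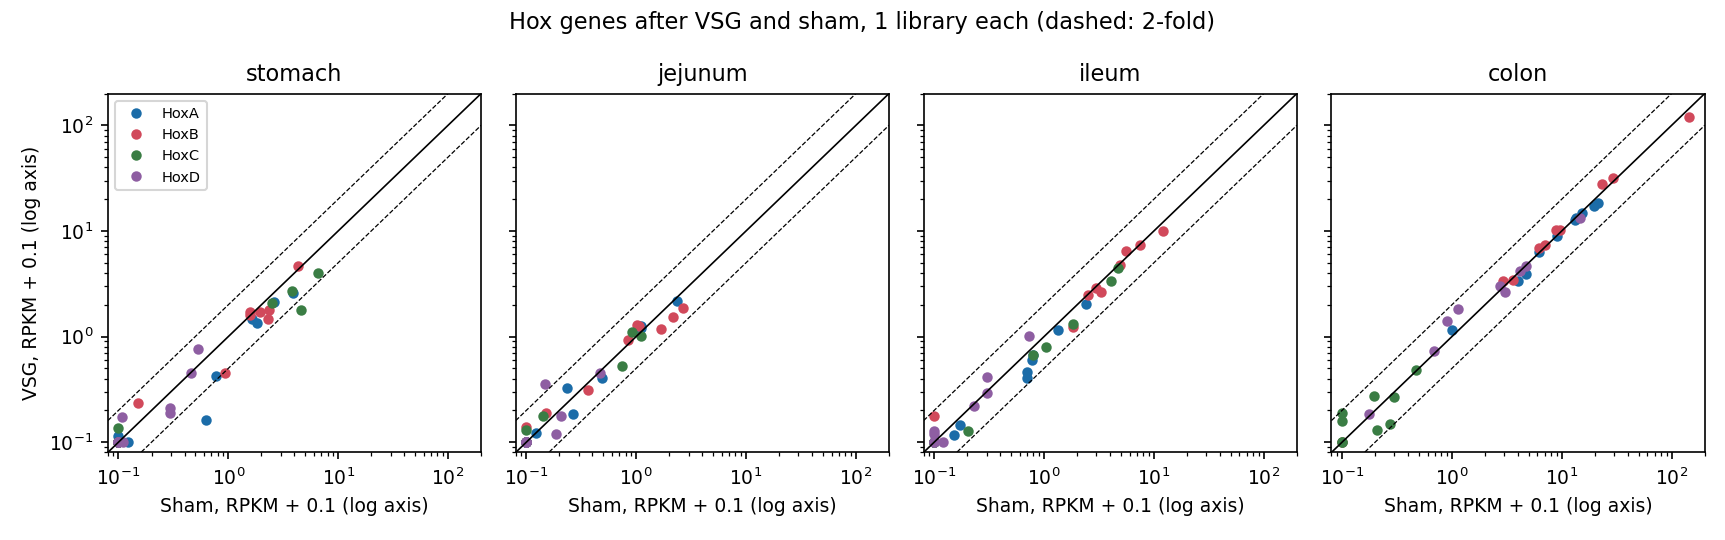
Each point is a Hox gene, with RPKM + 0.1 in the sham library on the x axis and in the VSG library on the y axis (both log axes), by tissue and cluster, with dashed lines at 2-fold. The colon points lie along the diagonal up to Hoxb13 (143 RPKM in sham, 119 RPKM in VSG), and in stomach Hoxc4, Hoxc5, Hoxc6 and Hoxc8 lie below it.

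The library labelled sham duodenum had a Hox profile of its own. Hoxa5 was at 85.1 RPKM there and Hoxb5 at 82.5 RPKM, and 15 Hox genes reached 1 RPKM, none of them posterior. The 16 posterior genes did not exceed 0.0316 RPKM, and 12 of them were listed at 0. Of its 15 genes 10 were at least 2-fold above each of the other 9 libraries, where 24.6% of all genes at 1 RPKM or more in it were. The summed level of 8 markers of hindbrain and spinal cord was 57.8 RPKM there against 11.0 to 38.9 RPKM elsewhere, that of 8 markers of midbrain and cerebellum 49.7 RPKM against at most 0.421 RPKM, and that of 10 forebrain markers 1.08 RPKM against 0.279 to 45.1 RPKM. In VSG duodenum, the other duodenum library, Hoxa5 was at 2.03 RPKM and Hoxb5 at 1.63 RPKM. No difference between VSG and sham can be read from duodenum.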

How the data were processed

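Total RNA libraries (TruSeq, per the labels' protocols) of 5 gut tissues were measured, 1 library per tissue and surgery. The deposited values are RPKM per gene, made by the authors with GSNAP and Cufflinks on mm10, per the submitters' processing notes. For the annotation, the strand setting and any filter, the entry is: not given in the sources used here. In 8 intestinal columns the values of 18187 genes stood 1 line away from their gene and were realigned: 0 of 24 Hox genes gave whole reads across stomach and intestine as deposited and 28 of 28 after (tolerance 0.001). Whole reads came out for 18565 of 18580 genes, 36073684 to 79313155 per library. Intervals from these reads are exact conditional binomial 95% intervals and, like the floor of 3 reads, cover counting error only.

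Tissue contrasts used limma 3.58.1 (R 4.3.3) on log2(RPKM + 0.1) with a mean-variance trend, fitted to 9 libraries with tissue and surgery terms, for genes with a mean of 0.1 RPKM or more, with Benjamini-Hochberg adjustment over all genes. The surgery term used 8 libraries with tissue as a block. A log2(RPKM + 0.1) difference understates the change of genes at low levels. The fit was tested on simulated data. Tables and exact tests used Python 3.11.15, pandas 2.3.3 and SciPy 1.17.1. Hox genes are printed in full where they reach 1 RPKM, others by range. From each list of related genes, up to 6 called in colon or stomach by size of difference, with Cdx1, Cdx2, Pdx1 and Meis1, may be named, and a few genes are not reported here; marker genes used to check labels were chosen after their values were seen. The members and lists were chosen with earlier results of these data known. Alternatives were pseudocounts of 0.5 and 1, no filter, a filter at 1 RPKM, all 10 libraries, values as deposited, scaling to 1 total, no surgery term, no trend and leaving out each library.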

Additional observations from a re-analysis of the deposited data

Results flagged for a closer look

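Signal stood out in the library labelled sham duodenum, which was left out of the 9-library tissue contrasts. There 10 Hox genes were at least 2-fold above each of the other 9 libraries. In HoxA they were Hoxa2 at 8.58 RPKM, Hoxa4 at 17.4 RPKM and Hoxa5 at 85.1 RPKM. In HoxB they were Hoxb2 at 21.4 RPKM, Hoxb3 at 16.7 RPKM, Hoxb4 at 11.4 RPKM and Hoxb5 at 82.5 RPKM. In HoxC and HoxD they were Hoxc4 at 31.7 RPKM, Hoxc5 at 9.44 RPKM and Hoxd3 at 13.0 RPKM. All have paralog numbers from 2 to 5. The same library had Snap25 at 498 RPKM and Epcam at 0.504 RPKM, and the part of its tissue source in these levels was not tested.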

How the results depend on the processing

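Counts here are over all tested Hox genes (33 in the 9-library fit), including the 9 that pass the filter only through colon. With all 10 libraries the number called against the mean of the other tissues was 7 in stomach, 13 in colon and 1 in each small intestine segment, and it was 1 in duodenum against stomach, 1 in ileum against jejunum, 10 in colon against ileum and 12 in the F test. With a pseudocount of 1 it was 9 in jejunum, 8 in ileum and 5 in duodenum against stomach. With a filter at 1 RPKM it was 7 in duodenum and 10 in ileum, and with no filter 4 in ileum against jejunum. With values as deposited it was 21 in stomach and 19 in duodenum, and the sign turned for Hoxa4 in colon (2.65), Hoxa5 in colon (-0.51) and Hoxa5 in stomach (1.44). Within tissues, the number past 2-fold was 1 in stomach with a pseudocount of 1, of 0.5 or a filter at 1 RPKM, and 0 in jejunum under these and with values as deposited. Leaving out each library in turn gave 12 to 19 in stomach, 15 to 29 in colon, 0 to 20 both in duodenum and in jejunum, 0 to 17 in ileum, 5 to 9 in duodenum against stomach, 0 to 2 in jejunum against duodenum, 0 to 11 in ileum against jejunum, 12 to 29 in colon against ileum, 22 to 32 in the F test and 0 to 0 for surgery. The cause of these shifts was not tested. Of the other values, 1523 kept their direction and side of the threshold, 60 lost the call, 26 gained it and 25 moved by more than their error. The surgery term without a mean-variance trend, added after seeing the data, called 0 Hox genes. No paired analysis was possible because the labels carry no replicate numbers and each group has 1 library. With 1 library a group, and 1 usable for duodenum, the error of every contrast is pooled over tissues, and genes under about 0.1 RPKM rest on few reads.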
